A study of Mus musculus with 12 samples.

Results

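The GIMAP genes encode a family of GTPases that act on the survival of lymphocytes, and their transcripts were followed here in mouse CD4 T cells before and after stimulation. The family was taken as Gimap1, Gimap3, Gimap4, Gimap5, Gimap6, Gimap7, Gimap8 and Gimap9, and a gene was included where the deposited tables list a locus under its symbol. Of the 8 genes, 5 were listed, namely Gimap3, Gimap4, Gimap6, Gimap8 and Gimap9. All 5 passed the filter on low values, among 9743 loci tested of 15125 listed. The other 3 genes, Gimap1, Gimap5 and Gimap7, are not listed under their own symbols, but transcript pieces with their exon and intron lengths were found inside a locus named 4833403J16Rik. These 3 were separated from that locus after the data had been seen, and are described with that limit.

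GIMAP proteins share a GTP-binding domain and sit on the membranes of intracellular compartments, and their genes lie side by side in a single cluster. GIMAP5 is the best known of them: rats and mice without it lose most of their peripheral T cells, and it sits at lysosomes, where it has been linked to the kinase GSK3B. GIMAP1 is needed by mature T and B cells, GIMAP3 is the close relative of GIMAP5, GIMAP6 binds the autophagy protein GABARAPL2, and GIMAP4 has been linked to the progress of apoptosis rather than to its prevention.

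The libraries came from mouse splenic CD4 T cells of genotypes that the labels name only as KI and KIKO, in a series on how a faulty proteasome harms T cells. There were 4 groups of 3 libraries, naive and activated cells of each genotype. Activated cells had been cultured for 16 h with Dynabeads carrying antibodies to CD3 and CD28, a stimulus through the antigen receptor and the co-receptor CD28, whereas naive cells had not. All groups share the KI element of the genotype name, while the sources used here do not give the altered gene, the strain, the age or the driver of any deletion. The sample titles of the KIKO activated group name T cells without CD4, unlike those of the other groups, although all 12 samples carry the same tissue label.

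Cd69, an early activation marker, stood between 4.97 and 11.2 FPKM in the 6 naive libraries and between 113 and 199 in the 6 activated ones. Cd4 was listed in all 12 libraries, from 86.4 to 221 FPKM. A 307-bp exon was read from a locus listed as Mir686, taken as the proteasome locus that separates the genotypes. Its match to a proteasome gene is not shown here, and a locus taken for this separation is no separate check of genotype. This exon stood between 42.8 and 43.9 FPKM in KI naive and between 115 and 141 in KI activated libraries. It was not listed in the KIKO naive group, and stood at 4.90 and 29.1 in KIKO activated libraries 1 and 2. A 229-bp exon of the locus was listed at 2.95 FPKM in KIKO naive 3 and at 4.90, 35.0 and 4.36 in KIKO activated libraries. Summed markers of myeloid cells reached 215 FPKM in KIKO naive 2 and 174 in KIKO activated 2, against 1.32 to 8.35 in the other 10 libraries. Summed NK cell markers were also highest in these libraries, at 9.01 and 24.3 FPKM, against 1.07 to 5.80 in the other 10. KIKO naive 2 also listed the fewest lines. FPKM scale the fragments of a transcript to its length and to all mapped fragments of the library, and they carry no read numbers, so the depth behind each value is unknown. No label says that replicates are separate animals, so p-values measure only the spread between samples, which may be technical.

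The cluster lies on chromosome 6, and the coordinates of the files are those of GRCm39. In order along the chromosome the listed loci were Gimap8 at chr6:48623056-48637854, Gimap9 at chr6:48652832-48657720 and Gimap4 at chr6:48661483-48668994, all on the plus strand, followed by Gimap6 at chr6:48675519-48685159 and Gimap3 at chr6:48740463-48748115 on the minus strand. Between the last 2 lay the pieces assigned to Gimap7 at chr6:48695541-48701570, Gimap1 at chr6:48715988-48719336 and Gimap5 at chr6:48722971-48728998, on the plus strand.

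In KI cells most listed GIMAP transcripts fell on stimulation. Gimap4, Gimap3, Gimap9 and Gimap8 fell and Gimap6 did not pass the test, so 4 of 5 listed members were called. All 4 were lower, where 61.7% of all loci tested were called in this comparison, 32.2% as higher and 29.5% as lower (limma, adjusted p under 0.05). The median log2 difference of the 5 members was -1.21, against -0.01 over all loci. In bulk RNA, fewer cells carrying a transcript and less of it per cell cannot be told apart. Summed markers of endothelial cells, 4 of 6 listed, also differed, from 69.3 to 78.7 FPKM in KI naive and from 21.1 to 33.4 in KI activated libraries. Pecam1, which T cells express too, made up 68.6 to 76.5 FPKM of this in the KI naive libraries, whereas Cdh5, which defines endothelial cells, was listed in KI naive 1 alone, at 0.657 FPKM. Summed T cell markers, 9 of 12 listed, ran from 2255 to 2309 FPKM in KI naive and from 1779 to 1986 in KI activated libraries. Within the T cell sum Cd5 was higher in KI activated libraries, and Trac and Trbc2 overlapped. The part of the endothelial and T cell markers in the result was not tested.

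Gimap4 had the highest level of the family in naive cells, with 655, 685 and 782 FPKM in the KI naive libraries. It stood at 165, 128 and 153 FPKM in the KI activated libraries, so no activated library came near a naive one. On the scale of log2(FPKM + 1), which is used for all differences given here, it fell by 2.24 ± 0.26 (SE, n = 3 per group, limma adjusted p = 1.5e-05). These levels are those of the 75-bp first exon. The transcript ends listed for Gimap4 gave far lower levels but the same direction, with a log2 difference of -2.28 by the summed ends alone (limma adjusted p = 2.2e-05). Its highest end, of 649 bp, stood at 40.7, 46.1 and 42.0 FPKM in KI naive libraries. The 2438-bp end of Gimap3 stood at 263, 274 and 476 there, so the rank of Gimap4 rests on its first exon.

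Gimap3 stood at 263, 274 and 476 FPKM in KI naive and at 150.0, 114 and 161 in KI activated libraries. The groups did not overlap, and KI naive 3 was set apart above the other naive libraries. The log2 difference was -1.21 ± 0.21 (limma adjusted p = 3.4e-04). Its level comes from the transcript ends, since a start was listed in KIKO naive 3 alone. In KIKO naive 1, KIKO naive 3 and KIKO activated 2 it includes a 4248-bp end, at 63.0, 40.1 and 24.9 FPKM. This end was not listed in any KI library, and its part in the genotype differences of Gimap3 was not tested. By sequence Gimap3 shares 190 of its 50-base words with Gimap5, which is 7.52% of those in Gimap3 and 4.53% of those in Gimap5, and no other pair in the family shares any, so reads from these stretches may have been counted for either gene.

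Gimap9, a GTPase whose function is less well described, stood at 198, 202 and 203 FPKM in KI naive and at 102, 78.6 and 70.0 in KI activated libraries. Its log2 difference was -1.28 ± 0.17 (limma adjusted p = 4.2e-05), although the small signal at its transcript ends alone gave -0.07 (limma adjusted p = 0.962). Gimap8, which carries several GTPase domains where its relatives carry a single copy, stood at 60.2, 59.3 and 70.8 FPKM in KI naive and at 37.4, 27.4 and 23.2 in KI activated libraries. Its log2 difference was -1.11 ± 0.20 (limma adjusted p = 4.2e-04). For neither gene did the naive and activated groups overlap.

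Gimap6, the partner of GABARAPL2, stood at 155, 145 and 149 FPKM in KI naive and at 184, 56.4 and 81.0 in KI activated libraries. KI activated 1 lay above all 3 naive libraries while the other activated libraries lay well below them. The log2 difference was -0.66 ± 0.36 and did not pass (limma adjusted p = 0.130). Without KI activated 1 it was -1.14 (limma adjusted p = 0.00363), so this library decided the call, and without KI activated 2 it was -0.29 (limma adjusted p = 0.492).

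**Figure D1:**
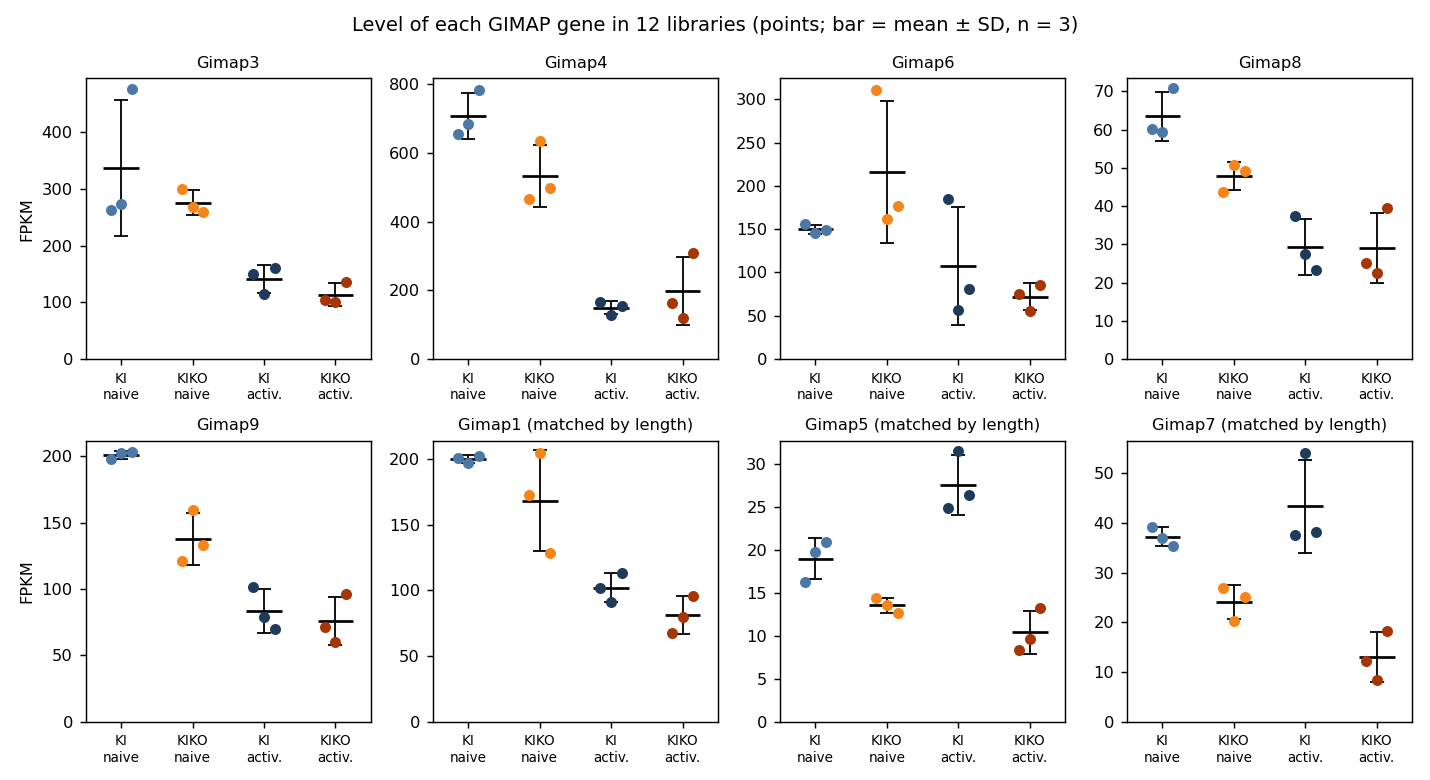
Level of each of the 8 GIMAP genes (vertical axis, FPKM) in 12 libraries, 3 in each of 4 groups (horizontal axis), with points for libraries and bars for the mean ± SD. Gimap1, Gimap5 and Gimap7 come from pieces of another locus assigned by length or by a shared splice position. Gimap4 runs from 655 to 782 FPKM in KI naive and from 128 to 165 in KI activated libraries, whereas Gimap5 runs from 24.8 to 31.4 in KI activated and from 8.38 to 13.2 in KIKO activated libraries.

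In KIKO cells all 5 listed members fell on stimulation. This compares with 47.3% of all loci called, 25.1% as higher and 22.2% as lower (limma). The median log2 difference of the 5 was -1.28, against 0.004 over all loci. Summed T cell markers ran from 1704 to 1892 FPKM in KIKO naive and from 1043 to 1403 in KIKO activated libraries, and endothelial markers from 43.1 to 52.9 and from 20.9 to 39.0, both without overlap. Within the T cell sum Cd5 was higher in KIKO activated libraries, and Cd3e, Cd4, Trac and Trbc2 overlapped. The part of the T cell and endothelial markers in the fall was not tested. Gimap4 stood at 464, 634 and 499 FPKM in KIKO naive and at 162, 120.1 and 309 in KIKO activated libraries, and fell by 1.53 ± 0.26 (limma adjusted p = 5.7e-04). KIKO activated 3 was the highest of its group for all 5 listed genes, and for none of them did it reach the lowest KIKO naive library.

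Gimap6 stood at 310.5, 161 and 176 FPKM in KIKO naive and at 75.4, 55.2 and 85.7 in KIKO activated libraries, a fall by 1.53 ± 0.36 (limma adjusted p = 0.00409). KIKO naive 1 was set apart above the other naive libraries for this gene. Gimap3 stood at 301, 268 and 259 FPKM in KIKO naive and at 103, 101 and 136 in KIKO activated libraries, and fell by 1.28 ± 0.21 (limma adjusted p = 4.2e-04).

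Gimap9 stood at 121, 159 and 133 FPKM in KIKO naive and at 71.4, 60.2 and 96.0 in KIKO activated libraries, and fell by 0.87 ± 0.17 (limma adjusted p = 0.00141), with -0.32 by its transcript ends alone (limma adjusted p = 0.824). Gimap8 stood at 43.6, 50.6 and 49.3 FPKM in KIKO naive and at 25.2, 22.4 and 39.6 in KIKO activated libraries, and fell by 0.74 ± 0.20 (limma adjusted p = 0.00957). Without both KIKO libraries numbered 2, which held the myeloid markers, 4 of the 5 remained called and Gimap8 gave -0.54 (limma adjusted p = 0.0959).

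The genotypes were then compared in naive cells. None of the 5 listed members passed the test, where 10.4% of all loci were called, 6.46% as higher and 3.90% as lower in KIKO (limma). Their median log2 difference, KIKO minus KI, was -0.40, against 0.05 over all loci. Summed T cell markers were lower in KIKO naive libraries, at 1704 to 1892 FPKM against 2255 to 2309, as were endothelial markers, at 43.1 to 52.9 against 69.3 to 78.7. Within the T cell sum Cd3e, Cd3g, Cd247, Cd4 and Cd5 were lower without overlap, whereas Cd3d, Trac, Trbc2 and Lat overlapped between the genotypes. The CD8 T cell markers, 2 of 2 listed, stood at 12.6 to 16.1 FPKM in KIKO naive against 6.51 to 8.12 in KI naive libraries. This sum was nearly all Cd8b1, since among naive libraries Cd8a was listed in KIKO naive 1 alone, at 0.125 FPKM. In activated cells the order was the other way, at 8.67 to 10.3 FPKM in KIKO against 11.1 to 12.9 in KI libraries. The part of the T cell, endothelial and CD8 markers in the naive differences was not tested. Gimap9 came nearest to a call: its KIKO naive libraries, at 121 to 159 FPKM, all lay below the KI naive ones, at 198 to 203 (log2 difference -0.55 ± 0.17, limma adjusted p = 0.0615). It passed with median-ratio scaling (limma adjusted p = 0.0354) and in a fit on the naive libraries alone (limma adjusted p = 0.0401). Gimap8 and Gimap4 also had every KIKO naive library below every KI naive one, with log2 differences of -0.40 (95% interval -0.84 to 0.04) and -0.42 (-0.99 to 0.16). How many of all loci separated groups without overlap was not counted, here or in the other comparisons, so such separation only describes the values. Gimap3 gave -0.24 (-0.70 to 0.22) with overlapping genotypes. Gimap6 gave 0.46 (-0.32 to 1.24), with all 3 KIKO naive libraries above the KI naive ones and KIKO naive 1 far above the rest. Without KIKO naive 1 the difference of Gimap6 was 0.17 (limma adjusted p = 0.817).

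In activated cells the listed members did not differ detectably by genotype, while the transcripts assigned to Gimap5 and Gimap7 did. None of the 5 listed members was called, where 40.0% of all loci were, 20.7% as higher and 19.3% as lower in KIKO (limma). Their median log2 difference was -0.14, against 0.04 over all loci. Gimap8 gave -0.03 (95% interval -0.47 to 0.41), Gimap9 -0.14 (-0.52 to 0.23), Gimap3 -0.31 (-0.78 to 0.15), Gimap6 -0.41 (-1.19 to 0.37) and Gimap4 0.29 (-0.28 to 0.87). These intervals still allow differences of moderate size in either direction. For each of the 5 genes the KI and KIKO activated libraries overlapped.

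The interaction, which asks whether the change on stimulation differed between genotypes, was called for none of the 5 listed members, against 20.6% of all loci, 8.99% as higher and 11.6% as lower (limma). Gimap4 gave 0.71 ± 0.37 (limma adjusted p = 0.206), and 1.01 without KIKO activated 2 (limma adjusted p = 0.0410), so that its call turned on that library. Without KIKO activated 3, the highest of its group, it was 0.33 (limma adjusted p = 0.356). Gimap6 gave -0.87 ± 0.51, Gimap9 0.41 ± 0.24, Gimap8 0.37 ± 0.28 and Gimap3 -0.08 ± 0.30, and none of these passed.

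The locus named 4833403J16Rik spans the ground between Gimap6 and Gimap3 and holds 60 transcript events. No length match to a gene of that name was found in GENCODE M21. Whether that annotation holds the name was not recorded, so this is no support for the matches below. Introns of 682, 850, 2038 and 4023 bp and exons of 49, 232 and 373 bp matched Gimap5, introns of 224, 4436 and 4747 bp and exons of 87 and 1188 bp matched Gimap7, and introns of 867 and 1081 bp with an exon of 103 bp matched Gimap1. By shared splice positions 49 events were assigned to Gimap5, 4 to Gimap7 and 3 to Gimap1. The remaining events were left unassigned. The first exons of Gimap5 and Gimap7, of 394 and 95 bp, matched no exon length of these genes and were assigned by splice position alone. Lengths alone were compared, since the annotation at hand is of build GRCm38. Single exon lengths were not specific to a gene: exons of 46 and 87 bp in this locus also matched Gimap4, the latter being the same length as in Gimap7. No intron of the locus matched Gimap4. The level of each gene was then computed as for any locus and the test run again over 9745 loci.

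Gimap1 moved with the listed members. It stood at 201, 197 and 202 FPKM in KI naive, 173, 204 and 128 in KIKO naive, 102, 91.4 and 113 in KI activated and 67.6, 79.3 and 96.0 in KIKO activated libraries. Every activated library lay below every naive one. It fell by 0.97 ± 0.16 on stimulation in KI cells and by 1.03 ± 0.16 in KIKO cells (limma adjusted p = 2.4e-04 and 3.1e-04). The genotype difference was -0.27 in naive and -0.34 in activated cells, and neither passed (limma adjusted p = 0.311 and 0.119). The naive difference was -0.09 without KIKO naive 3 and -0.42 without KIKO naive 2, and passed in neither case (limma adjusted p = 0.745 and 0.131). All levels given here for Gimap1 are those of its 103-bp start. A 311-bp start at chr6:48714107-48714417 was left unassigned. It stood at 33.1 FPKM in KI naive 3, 32.9 in KIKO naive 3 and 31.0 in KI activated 1. In KIKO activated 1 and 3 it stood at 12.4 and 21.9. The Gimap1 junctions gave 148 FPKM in KIKO naive 3 and 123 in KI activated 1, above its levels. In KI naive 3 they gave 195, below its level. The part of the unassigned start in these differences was not tested. The activated difference passed with splice junctions alone (-0.47, limma adjusted p = 0.0176) and without KIKO activated 3 (-0.47, limma adjusted p = 0.0494).

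Gimap5 behaved otherwise. It stood at 16.3, 19.7 and 20.8 FPKM in KI naive and at 14.4, 13.6 and 12.6 in KIKO naive libraries, and after stimulation it was 24.8, 31.4 and 26.3 in KI but 8.38, 9.55 and 13.2 in KIKO libraries. The KI activated libraries were the highest and all 6 KIKO libraries lay below all 6 KI libraries. In activated cells Gimap5 was lower in KIKO (log2 difference -1.34 ± 0.15, limma adjusted p = 3.8e-05). The naive difference of -0.45 ± 0.15 did not pass (limma adjusted p = 0.0805).

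Gimap7, whose product can stimulate GTP hydrolysis by its relatives, showed the same order of groups. It stood at 39.3, 37.1 and 35.4 FPKM in KI naive and at 26.9, 20.3 and 25.05 in KIKO naive libraries, and after stimulation it was 37.7, 54.2 and 38.2 in KI but 12.3, 8.39 and 18.3 in KIKO libraries. Again all 6 KIKO libraries lay below all 6 KI libraries. In activated cells it was lower in KIKO (log2 difference -1.71 ± 0.22, limma adjusted p = 1.0e-04), and the naive difference of -0.62 ± 0.22 did not pass (limma adjusted p = 0.0988).

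With the 3 assigned genes counted, 2 of 8 family members were called in activated cells, both lower in KIKO, and 0 of 8 in naive cells. In naive cells Gimap5 passed with quantile normalization (limma adjusted p = 0.0495) and Gimap7 in the fit on the naive libraries alone (limma adjusted p = 0.0366). The share of all 9745 loci called was unchanged to 3 digits, at 40.0% and 10.4%. Without KIKO activated 2 the activated differences were -1.30 for Gimap5 and -1.45 for Gimap7 (limma adjusted p = 2.3e-04 and 2.0e-04), and over all settings run they stayed between -1.51 and -1.10 and between -1.97 and -1.34. Summed T cell markers ran from 1779 to 1986 FPKM in KI activated and from 1043 to 1403 in KIKO activated libraries. Of these markers, Cd247, Trac and Trbc2 overlapped between the genotypes. The part of the T cell markers in the lower Gimap5 and Gimap7 levels was not tested.

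On stimulation Gimap5 rose in KI cells by 0.52 ± 0.15 (limma adjusted p = 0.0111), the only family member called higher, and Gimap7 gave 0.19 ± 0.22 (limma adjusted p = 0.473). The rise of Gimap5 missed the threshold without KI naive 1 (limma adjusted p = 0.0523) or KI activated 2 (0.0533). In KIKO cells Gimap7 fell by 0.89 ± 0.22 (limma adjusted p = 0.00593), while Gimap5 gave -0.37 ± 0.15 (limma adjusted p = 0.0628) and passed without KIKO activated 3 (-0.54, limma adjusted p = 0.00592) and with quantile normalization (-0.40, limma adjusted p = 0.0469). The interaction was -0.89 ± 0.22 for Gimap5 and -1.09 ± 0.31 for Gimap7 (limma adjusted p = 0.0138 and 0.0298). That of Gimap7 missed the threshold without KI naive 1, 2 or 3, KIKO naive 1 or 3, KI activated 2 or KIKO activated 1 (limma adjusted p = 0.0502 to 0.0742).

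Single events show how far these values depend on the piece of transcript measured. The first exon of Gimap5, of 394 bp at chr6:48722971-48723364, stood at 27.2 ± 3.67 FPKM (SD, n = 3) in KI activated and 9.34 ± 2.07 in KIKO activated libraries. The junction over its 2038-bp intron stood at 21.05 ± 3.03 and 7.71 ± 0.815 FPKM in the same groups. KI activated 2 had the highest first exon of its group, at 31.4 FPKM, and the lowest junction, at 17.6. The same library held 10.4 and 9.89 FPKM of the 3′ exons of 373 and 232 bp, where the other 11 libraries had at most 1.83 and 1.48.

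The first exon of Gimap7, of 95 bp, likewise stood at 54.2 FPKM in KI activated 2, against 26.7 for the junction over its 4747-bp intron. With junctions alone, the activated genotype difference remained for both genes, but the rise of Gimap5 in KI cells was 0.26 (limma adjusted p = 0.151) and Gimap7 gave -0.10. The interaction by junctions alone was -0.63 for Gimap5 and -0.75 for Gimap7, and neither passed (limma adjusted p = 0.0529 and 0.106). The lower level in activated KIKO cells was thus found by both measures, whereas the call of an interaction and of a rise in KI cells held by the full level only. These measures are not independent, since values recur across events, so junctions alone are no separate check. For Gimap7 the junction over the 4747-bp intron and the 1188-bp 3′ exon both stood at 11.9, 8.33 and 18.3 FPKM in KIKO activated libraries.

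**Figure D2:**
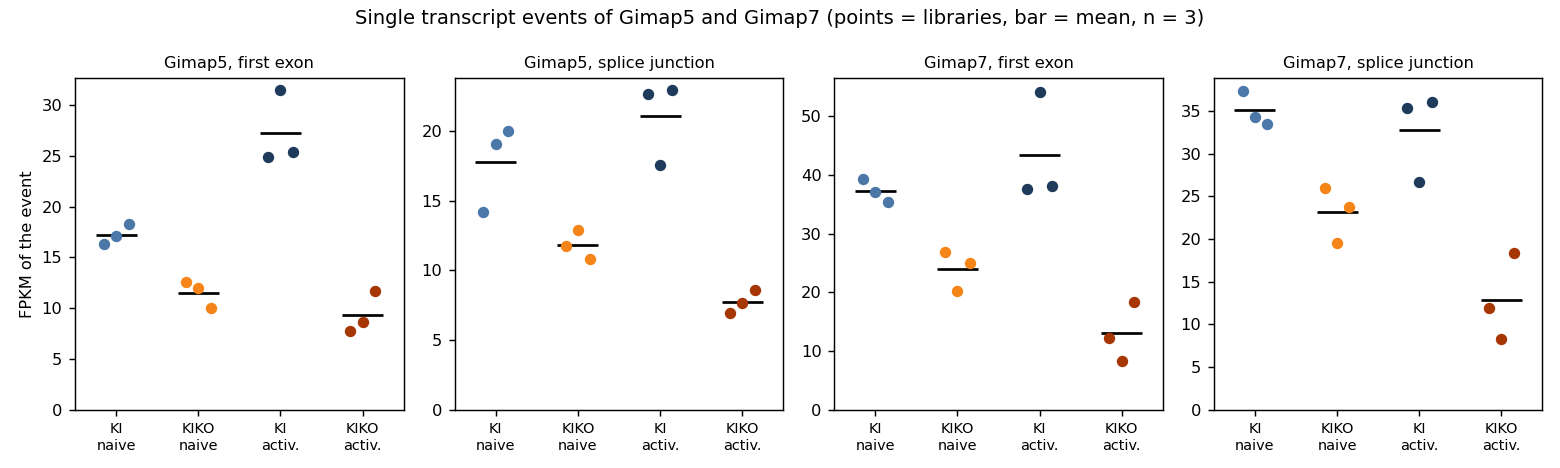
FPKM (vertical axis) of the first exon and of a splice junction of Gimap5 and Gimap7 in the 4 groups (horizontal axis), with points for libraries and bars for group means. The first exon of Gimap5 averages 27.2 FPKM in KI activated and 9.34 in KIKO activated libraries, and its junction 21.05 and 7.71.

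**Figure D3:**
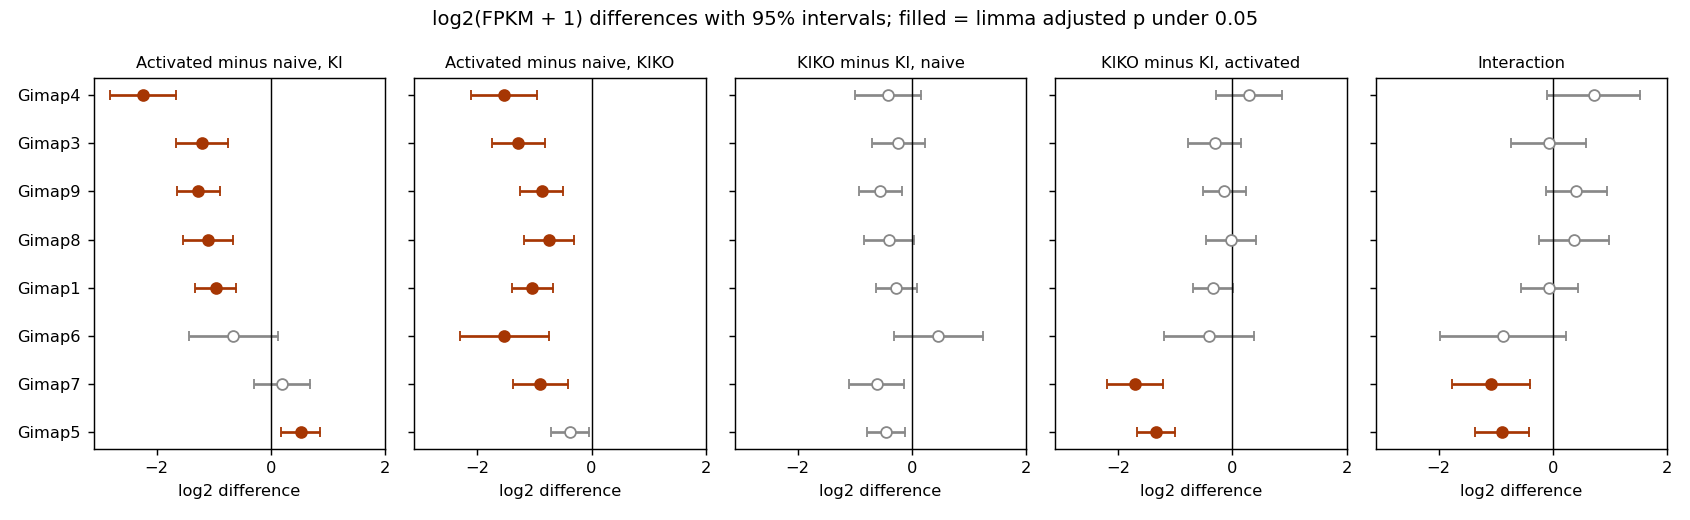
Differences on the log2(FPKM + 1) scale (horizontal axis) with 95% intervals for the 8 genes (vertical axis) in 5 comparisons; filled points have a limma adjusted p under 0.05. In activated cells Gimap5 and Gimap7 stand at -1.34 and -1.71, while the other 6 genes lie between -0.41 and 0.29 and are open.

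The promoters of the genes with the strongest fall on stimulation and the strongest genotype difference are shown to let their sequences be compared. All 8 genes were found in the RefSeq promoter table of build GRCm38.p6, with 9 windows of 300 bases, since Gimap8 has a pair of starts. Each window runs from 250 bases before to 50 bases after the start on the plus strand, at chr6:48684328-48684627 for Gimap4, chr6:48745947-48746246 for Gimap5 and chr6:48718371-48718670 for Gimap7. Capitals mark matches, on either strand, to short core motifs of factors known in resting T cells: CACCC for KLF, TGTTTAC for FOXO, TGTGGT for RUNX and CTTTGA for TCF/LEF.
Gimap4: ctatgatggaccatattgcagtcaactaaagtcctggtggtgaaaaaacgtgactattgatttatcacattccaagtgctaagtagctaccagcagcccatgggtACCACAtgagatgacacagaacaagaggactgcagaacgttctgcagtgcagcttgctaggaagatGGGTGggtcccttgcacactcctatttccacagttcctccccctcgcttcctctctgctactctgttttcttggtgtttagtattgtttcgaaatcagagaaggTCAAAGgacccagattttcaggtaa
Gimap5: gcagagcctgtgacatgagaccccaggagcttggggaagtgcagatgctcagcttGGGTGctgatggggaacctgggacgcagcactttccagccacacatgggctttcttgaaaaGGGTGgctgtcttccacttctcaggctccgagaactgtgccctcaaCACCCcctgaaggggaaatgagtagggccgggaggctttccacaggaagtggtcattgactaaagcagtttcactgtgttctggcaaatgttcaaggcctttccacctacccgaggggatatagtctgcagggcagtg
Gimap7: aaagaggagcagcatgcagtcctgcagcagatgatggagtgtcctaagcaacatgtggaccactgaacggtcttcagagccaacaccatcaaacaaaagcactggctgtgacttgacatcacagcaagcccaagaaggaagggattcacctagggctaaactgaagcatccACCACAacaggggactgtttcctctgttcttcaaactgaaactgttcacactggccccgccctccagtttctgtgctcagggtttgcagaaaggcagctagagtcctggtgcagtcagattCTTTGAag

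The Gimap5 window held 3 KLF matches and none of the other motifs, the Gimap7 window held a RUNX and a TCF/LEF match and no KLF match, and the Gimap4 window held KLF, RUNX and TCF/LEF matches. Over the 9 windows, 6 held CACCC, against 57.7% of 32544 promoters of this length in the table, 3 held TGTGGT (16.7% of all), 2 held CTTTGA (16.0%), 1 held TGTTTAC (3.66%, in Gimap3) and none held the ETS core CCGGAAG (8.91%). The Gimap8 windows overlap and share a CACCC match, so by gene 5 of 8 held CACCC. The motifs do not overlap one another in the windows shown. Gimap5 and Gimap7, which shared their pattern of levels, shared none of these motifs. A match is a string of letters and not a binding site.

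Across the 12 libraries the family fell into sets of unlike pattern. Gimap1, Gimap3, Gimap4, Gimap8 and Gimap9 correlated with each other at Pearson's r of 0.866 to 0.980 on the log2(FPKM + 1) scale, Gimap8 with Gimap9 the most. Gimap6 correlated with these at 0.687 to 0.767. Gimap5 and Gimap7 correlated with each other at 0.903, but Gimap5 with the other 6 genes at -0.06 to 0.23 and Gimap7 with them at 0.24 to 0.45. These values describe 12 libraries of 4 groups that share genotype and stimulation within a group, and Gimap1, Gimap5 and Gimap7 also share the locus they were separated from.

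Outside the family, the 6 symbols whose levels were most like the mean of the 5 listed members over the 12 libraries were Ifi209 (Pearson's r = 0.989), Tmc8 (0.988), Cyth1 (0.987), Cdc42se1 (0.986), Sun2 (0.986) and Galnt10 (0.986). Ifi209, an interferon-inducible gene, stood at 95.3 ± 4.67 FPKM in KI naive and 75.9 ± 1.12 in KIKO naive, and at 32.6 ± 8.98 in KI activated and 31.8 ± 12.9 in KIKO activated libraries. Sun2, of the nuclear envelope, stood at 144 ± 8.31, 119 ± 4.21, 43.3 ± 5.78 and 43.1 ± 16.2 FPKM in the same order.

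Gimap9 also differed between groups in the form of its second exon, a feature picked after its values had been seen. The files list this exon in a long form of 1243 bp and in a short form of 474 bp that ends within the long one. The short form ends at the same base as a 405-bp start exon that matches the first exon of transcript Gimap9-202 in GENCODE M21. That start exon itself was almost absent, at 0.0083 to 0.017 FPKM in 11 of 12 libraries and 1.29 in KI naive 1, against 2.36 to 11.1 for the short form, so Gimap9-202 serves here only as the annotated example of the junction. The sequences on both sides of that end show what it does to the reading frame. The first is read through from the long form, with the GT of the splice donor in capitals. The second is Gimap9-202, with the bases after the junction in capitals.
Gimap9-201: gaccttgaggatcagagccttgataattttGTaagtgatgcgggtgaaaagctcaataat
Gimap9-202: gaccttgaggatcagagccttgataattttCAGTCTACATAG

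In the annotation the donor follows base 435 of the 873 coding bases of Gimap9-201, at 49.8% of its coding length, and Gimap9-202 reads 9 further bases to the stop codon TAG. The files do not tie the short exon to the exon that follows, so the protein made from it in these cells is not known. The short form made up 2.24%, 3.85% and 3.75% of both forms in KI naive and 12.1%, 15.0% and 13.4% in KIKO naive libraries. After stimulation it made up 8.26%, 7.95% and 12.9% in KI and 10.4%, 18.4% and 20.2% in KIKO libraries.

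The naive genotypes did not overlap, with means of 3.28% ± 0.904 and 13.5% ± 1.49 (SD, n = 3). The exact two-sided permutation test gave p = 0.1, the smallest it can give with 3 against 3. In activated cells the groups overlapped, at 9.71% ± 2.79 and 16.4% ± 5.19 (exact permutation p = 0.2). In naive cells the short form itself was higher in KIKO, at 7.78 to 11.1 FPKM against 2.36 to 3.38, and the long form was lower, at 55.6 to 62.7 against 80.7 to 103. The share thus moved through both of its parts.

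**Figure D4:**
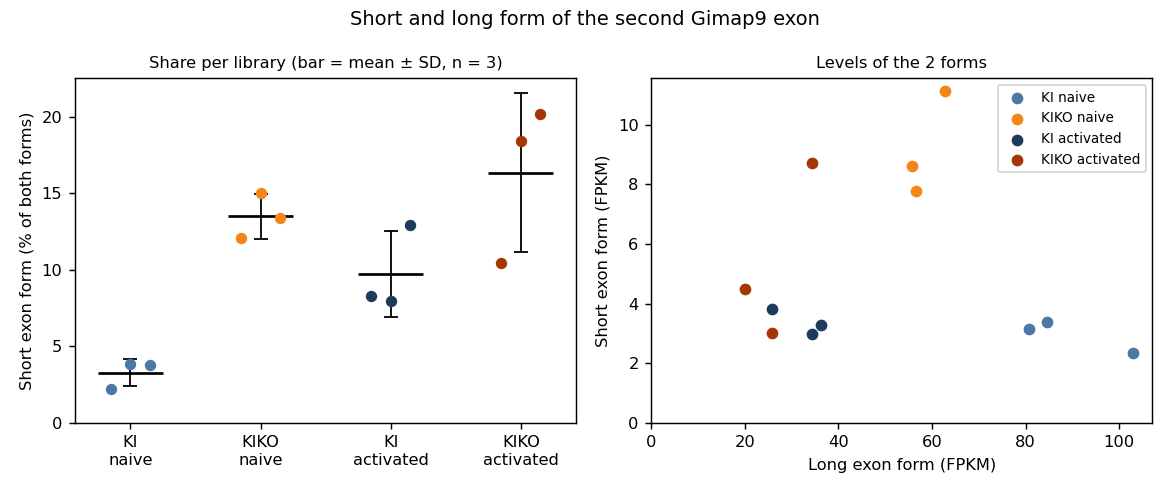
Left, share of the short form among both forms of the second Gimap9 exon (vertical axis, percent) by group, with points for libraries and bars for the mean ± SD; right, FPKM of the short form against FPKM of the long form in each library. The KI naive libraries lie between 2.24% and 3.85%, below all other libraries, which lie between 7.95% and 20.2%.

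Other transcript forms were compared in the same way. For Gimap8, the share of the upstream of its starts was 57.1% ± 2.97 in KI naive against 57.2% ± 8.52 in KIKO naive libraries (exact permutation p = 1), and 54.4% ± 9.02 and 60.6% ± 14.9 after stimulation (exact permutation p = 0.5). For Gimap1, an extra exon of 118 bp was held by 29.0% ± 4.84 of the junction signal in KI naive and by 16.6% ± 4.76 in KI activated libraries, without overlap (exact permutation p = 0.1). In KIKO cells the shares were 21.02% ± 6.76 and 18.1% ± 1.22 (exact permutation p = 0.6). In all, 12 such comparisons were made of 3 shares, and with 3 against 3 none can reach 0.05.

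Genes that work beside the family were taken from lists of known genes. Of the BCL2 family, the regulators of mitochondrial apoptosis, 10 members were tested. In activated cells 3 were higher and 1 lower in KIKO, with a list median of 0.14, so 4 of 10 were called, no more than the 40.0% of all loci called in this comparison. Bbc3, which encodes the death-promoting protein PUMA, stood at 14.5, 10.7 and 10.3 FPKM in KI against 41.8, 42.5 and 38.8 in KIKO activated libraries (log2 difference 1.73 ± 0.12, limma adjusted p = 1.4e-06). Pmaip1, encoding NOXA, gave 2.91 ± 0.29 and Bcl2l11, encoding BIM, 1.10 ± 0.11, both called higher. Bcl2l1, which encodes the protective BCL-XL, was lower, at 61.1 ± 7.63 FPKM in KI against 25.5 ± 6.40 in KIKO activated libraries (log2 difference -1.25 ± 0.18, limma adjusted p = 2.15e-04). Bcl2, the founding member of the family, stood at no more than 1.27 FPKM in all 12 libraries and was not called between genotypes.

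IL-7 signalling keeps naive T cells alive. Of its 7 tested members, 2 were higher and 2 lower in KIKO activated cells, with a median of 0.18, where 20.7% of all loci were called higher and 19.3% lower. Il7r, the receptor, stood at 258 ± 24.0 FPKM in KI naive and 228 ± 5.98 in KIKO naive, and at 7.34, 4.59 and 17.2 in KI activated and 43.3, 11.3 and 63.5 in KIKO activated libraries, which overlap. It was called higher in KIKO activated cells (1.79 ± 0.51, limma adjusted p = 0.0152). Pim1, a survival kinase, was higher by 0.78 ± 0.11. Il2rg and Stat5a, the shared receptor chain and a transcription factor below it, were lower, with log2 differences of -0.88 ± 0.10 and -0.93 ± 0.21 (limma adjusted p = 5.0e-05 and 0.00349).

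The resting program of T cells holds the transcription factors and brakes that stimulation turns down. Of 17 tested members, 14 fell and 2 rose on stimulation in KI cells (median -1.17), and 12 fell and 3 rose in KIKO cells (median -0.97), beside -1.21 and -1.28 for the listed GIMAP genes. Of all loci, 29.5% were called lower and 32.2% higher on stimulation in KI cells, and 22.2% and 25.1% in KIKO cells. In activated cells 6 members were called higher and 4 lower in KIKO, against 20.7% and 19.3% of all loci. Klf6 stood at 8.87 ± 1.70 FPKM in KI against 28.9 ± 8.43 in KIKO activated libraries (1.57 ± 0.18, limma adjusted p = 4.1e-05). Tob1, a brake on proliferation, gave 1.47 ± 0.11, Foxo3 1.26 ± 0.12 and Runx1 0.96 ± 0.11, all called. The 4 called lower were Ccr7 at -0.85 ± 0.12, Slfn2 at -0.82 ± 0.10, Satb1 at -0.73 ± 0.10 and Ets1 at -0.65 ± 0.22. The interaction was called higher for 5 members, against 8.99% of all loci, and lower for 1, against 11.6%. The last was Ccr7, the lymph node homing receptor, at -0.54 ± 0.16 (limma adjusted p = 0.0375).

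Of 10 tested genes of ATG8 conjugation, the autophagy step at which GIMAP6 binds, 2 were higher in naive and 4 in activated KIKO cells, and none was lower. Of all loci, 10.4% were called either way in naive cells, 6.46% as higher, and 40.0% in activated cells, 20.7% as higher. Counted either way, the share of the list called in activated cells was no larger than that of all loci. The list median in activated cells was 0.09, against 0.04 over all loci. Gabarapl2, the partner of GIMAP6, stood at 21.2 ± 2.34 FPKM in KI against 29.1 ± 1.06 in KIKO activated libraries (0.44 ± 0.09, limma adjusted p = 0.0027). Its relative Gabarapl1 stood at 6.77 ± 0.379 and 70.5 ± 13.8 FPKM (3.19 ± 0.15, limma adjusted p = 1.1e-07). Of 9 genes of GSK3 and lysosomes, where GIMAP5 acts, 5 were higher and none lower in activated KIKO cells, where 20.7% of all loci were called higher and 19.3% lower. Gsk3b, the kinase linked to GIMAP5, gave 0.31 ± 0.10 (limma adjusted p = 0.0233) and Ctsd, a lysosomal protease, 1.73 ± 0.12 (limma adjusted p = 1.8e-06).

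The interferon-inducible GTPases are another GTPase group of immune cells. Of 7 tested, 6 were higher and none lower in activated KIKO cells, with a list median of 1.99 against 0.04 over all loci, of which 20.7% were called higher and 19.3% lower. Gbp2 stood at 20.1 ± 7.29 FPKM in KI against 132 ± 20.3 in KIKO activated libraries (2.70 ± 0.22, limma adjusted p = 3.8e-06), while Gbp5 gave 0.16 ± 0.17 and did not pass. In naive cells none of the 7 was called. The direction in activated cells was thus opposite to that of Gimap5 and Gimap7.

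A list of genes near the cluster had 5 tested members, of which Zfp775 and Tmem176b lie on chromosome 6 in the files and the other 3, Kcnh2, Atg9b and Abcb8, on chromosome 5, where they are no neighbours. Of all 5, 3 were higher and none lower on stimulation in KI cells, and 2 were higher and 1 lower in KIKO cells. Of all loci, 61.7% were called in KI cells, 32.2% as higher and 29.5% as lower. In KIKO cells 47.3% were called, 25.1% as higher and 22.2% as lower. Zfp775, a zinc finger gene at chr6:48570817-48597766, stood at 1.83, 2.35 and 2.67 FPKM in KI naive and at 3.63, 3.90 and 4.29 in KI activated libraries, and rose (log2 difference 0.60 ± 0.14, limma adjusted p = 0.00266). Tmem176b, at chr6:48810752-48818308 beyond Gimap3, was at or below 2.05 FPKM in all libraries and was not called in any comparison.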

How the data were processed

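RNA from 12 samples was measured from 15 ng of total RNA by poly(A) selection and a TaKaRa SMART-seq kit that keeps strand, as the labels' protocols state. FastQC 0.11.9, cutadapt 2.9 and HISAT2 2.2.0 are named in the submitters' processing notes, and the sources used here name no program for the FPKM step. The values are FPKM deposited by the authors, for transcript events such as starts, ends and skipped exons. Events not listed in a library were taken as 0, which need not mean silence.

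Duplicate events were dropped, and the level of a locus was the largest of its summed starts, its summed ends and its largest single event. Where a symbol labels several loci, the highest mean kept it. Coordinates are GRCm39. Differences of log2(FPKM + 1) were tested with limma 3.58.1 in R 4.3.3 (intensity trend, means of 4 groups) over 9743 loci with FPKM of at least 1 in at least 3 libraries, with Benjamini-Hochberg adjustment and a threshold of 0.05. The procedure was tested on simulated data. Exact permutation tests were run in Python 3.11.15.

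The members and the gene lists were chosen with earlier results of these data known. Named genes are all members, the 6 genes most alike and, per list, at most 4 with the lowest p for the interaction and for genotype in activated cells, plus any at odds with its list. Bcl2, Gsk3b, Slfn2, Satb1 and Ets1, outside this rule, were picked for description after their values were seen. Gimap1, Gimap5 and Gimap7 were separated from 4833403J16Rik, by exon and intron lengths in GENCODE M21, after the data were seen, as were the junction-only level and the fit without both KIKO libraries numbered 2. Alternatives were another pseudocount (0.1), no filter, other scalings, starts or ends alone, left-out replicates, a replicate block and fits on the groups compared alone.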

Additional observations from a re-analysis of the deposited data

Results flagged for a closer look

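The change of Gimap5 on stimulation differed between the genotypes by -0.89 on the log2(FPKM + 1) scale, and that of Gimap7 by -1.09, by limma's test of the difference itself. In KI cells Gimap5 rose on stimulation while Gimap7 gave 0.19 and was not called. In KIKO cells Gimap7 fell, while Gimap5 gave -0.37, was not called (limma adjusted p = 0.0628) and had KIKO activated 3, at 13.2 FPKM, above KIKO naive 3, at 12.6. Both rest on transcript pieces assigned by length or by a splice position shared with a matched piece. Their first exons, of 394 and 95 bp, were assigned by splice position alone. Both differences missed the threshold when splice junctions alone were measured.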

How the results depend on the processing

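In naive cells 1 listed GIMAP gene, Gimap9, was called between genotypes with median-ratio scaling and in the fit on the groups compared alone, against 0 in the reported fit. With transcript ends alone the loci called fell to 553 and 2309 for genotype in naive and activated cells, 3583 and 2746 for stimulation in KI and KIKO cells, and 1114 for the interaction, over fewer loci. Leaving out 1 replicate gave 493 to 744 (493, 557 and 531 without KI naive 1, 2 and 3), 3043 to 3684, 5336 to 5716, 3574 to 4620 and 1363 to 2085 loci in the same order, against 1009, 3898, 6013, 4609 and 2010, and 0 to 1 listed GIMAP genes for the interaction. Without both KIKO libraries numbered 2 that count was 1, Gimap4 (1.14).

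Some differences that were not called turned sign. With ends alone Gimap9 gave 0.59, 0.35 and -0.24 for genotype in naive cells, in activated cells and the interaction, and Gimap8 gave 0.017 for genotype in activated cells. With quantile normalization Gimap8 and Gimap9 gave 0.0081 and 0.037 for genotype in activated cells, Gimap7 gave -0.013 for stimulation in KI cells, and Gimap3 and Gimap1 gave 0.032 and 0.056 for the interaction. Gimap7 gave -0.10 for stimulation in KI cells with junctions alone, and Gimap1 0.094 for the interaction without both KIKO libraries numbered 2. Leaving out 1 replicate turned the sign of genotype differences of Gimap3 in naive cells (-0.39 to 0.035) and, in activated cells, of Gimap4 (-0.086 to 0.59), Gimap6 (-0.78 to 0.069), Gimap8 (-0.27 to 0.15) and Gimap9 (-0.32 to 0.0075), and of the interaction of Gimap3 (-0.35 to 0.077) and Gimap1 (-0.25 to 0.087). The causes were not tested.

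The interaction of Gimap7 missed the threshold without the filter (limma adjusted p = 0.0583), with quantile normalization (0.0520) and without 7 of the 12 libraries in turn (0.0502 to 0.0742). Scaling moved the share of naive genotype calls that were higher in KIKO from 62.3% to 44.2% (median-ratio) and 49.4% (quantile).

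Same-numbered libraries deviated together with correlations of -0.004 to 0.10 across activation within genotype, and of -0.03 to 0.12 across genotypes. The numbers were not taken as pairs, although across activation 8 of 12 libraries matched best with their own number. The KIKO libraries numbered 2 also shared high myeloid markers, at 215 FPKM in naive and 174 in activated cells. No label says whether same-numbered libraries share a source. With a replicate block 875, 3825, 5912, 4430 and 1836 loci and 0, 0, 4, 5 and 0 listed GIMAP genes were called, and no call of a GIMAP gene changed. Gimap3 has no value with starts alone, and Gimap1, Gimap5 and Gimap7 were not run with starts or ends alone.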
